A study of Mus musculus with 6 samples.

Results

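Sprr1a, Tgm2, Gsdmc2, Gsdmc4, Pla2g5 and Lcn2 were followed in the ileal mucosa of Duoxa-/- mice and wild-type (wt) littermates. Members were all probe sets of the array whose platform gene symbol is exactly one of these 6 names, and 10 of 45037 probe sets met this rule. Tgm2 had 6 of them, while Sprr1a, Gsdmc2, Pla2g5 and Lcn2 had 1 each. Gsdmc4 had 0, since a probe set annotated to it is also annotated to Gsdmc2, so 5 of the 6 genes had a probe set of their own. The samples were 3 Duoxa-/- and 3 wt pools of terminal ileum RNA from female mice of strain 129S6, 3 months old, each pool holding 2 to 3 animals of 1 cage. Each of 3 cages, 1 litter each, gave 1 pool per genotype, so that both genotypes shared cage, litter and strain. Duoxa-/- mice lack the maturation factors of the dual oxidases in all cells, and the comparison asked how ileal expression differs without them. Pooling leaves the spread between single animals unmeasured.

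The products of these genes act at the epithelial border in different ways. Sprr1a encodes a small proline-rich protein, a precursor of the cornified envelope of stratified epithelia, and members of the related Sprr2 group are known to be induced by gut bacteria in the mouse intestine. Tgm2 encodes transglutaminase 2, a calcium-dependent enzyme that cross-links proteins between glutamine and lysine residues and that is the autoantigen of coeliac disease in humans. Gasdermins form pores in membranes once a protease has removed their inhibitory domain, and the gasdermin C genes are known in the mouse intestine as targets of the type 2 cytokines interleukin-4 and interleukin-13. Pla2g5 encodes a secreted phospholipase A2, which frees fatty acids from membrane phospholipids. Lcn2 encodes lipocalin-2, which binds bacterial siderophores and so keeps iron from bacteria, and which both neutrophils and inflamed epithelium make. The arrays hold no germ-free or colonised arm, so whether microbes induce these genes was not measured here.

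Promoter sequences of Sprr1a, Lcn2 and Pla2g5 were available from RefSeq (build GRCm38.p6, 250 bases before to 50 after the gene's start), and those of Sprr1a and Lcn2 are printed because they hold a match to a searched motif for the kinds of factor that respond to stress and cytokine signals. The motifs searched on both strands were TGAGTCA (AP-1), TTC and GAA with 3 bases between them (STAT), the same with 4 bases between them (STAT6), and GGG and TTTCC with 2 bases between them (NF-kB-like). Capitals mark the matches, and no matches overlapped. The Sprr1a promoter, chr3:92485832-92486131 on the minus strand, held TGAGTCA at 2 places, from -146 to -140 and from -116 to -110 relative to the start. Of 32851 promoters of this length, 5.2% held TGAGTCA. The Lcn2 promoter, chr2:32387690-32387989 on the minus strand, held the STAT6 motif once, from -156 to -147, and 6.95% of promoters held it. The STAT motif stood in 8.3% and the NF-kB-like motif in 1.63% of promoters, and neither stood in the Sprr1a or Lcn2 window. The Pla2g5 windows at its 2 annotated starts held 0 of the 4 motifs.
Sprr1a: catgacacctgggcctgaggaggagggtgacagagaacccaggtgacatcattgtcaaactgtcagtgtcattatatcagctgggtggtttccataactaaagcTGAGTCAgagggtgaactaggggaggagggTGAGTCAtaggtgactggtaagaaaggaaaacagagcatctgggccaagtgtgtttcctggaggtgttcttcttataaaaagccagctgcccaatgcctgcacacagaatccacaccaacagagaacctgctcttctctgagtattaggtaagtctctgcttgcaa
Lcn2: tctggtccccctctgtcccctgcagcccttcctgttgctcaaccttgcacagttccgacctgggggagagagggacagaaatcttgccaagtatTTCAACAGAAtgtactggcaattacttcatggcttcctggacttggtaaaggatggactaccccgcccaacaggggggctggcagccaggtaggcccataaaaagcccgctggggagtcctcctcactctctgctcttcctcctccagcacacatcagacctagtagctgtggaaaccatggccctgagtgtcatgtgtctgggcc
These matches are letters in a window and were not tested for binding.

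All values are log2 summaries per probe set, so a difference of 1 is a doubling, and levels of different probe sets are not on a common scale. The targeted gene Duoxa2 (1422137_at) read 5.90, 5.55 and 5.92 in the Duoxa-/- pools of cages 1, 2 and 3, against 8.81, 8.36 and 7.24 in the wt pools, so every Duoxa-/- pool lay below every wt pool. The difference was -2.34 (SE 0.33), with a limma adjusted p of 0.794, or 0.0158 without the wt pool of cage 3. Whether this probe set lies within the deleted part is not given in the labels. The epithelial markers, 10 of 10 measured, had mean levels of 13.14 to 13.16 in Duoxa-/- pools and 13.14 to 13.18 in wt pools. Epithelial transcripts were thus bright in every pool, but these markers do not tell the ileum from other gut segments. The markers listed for ileal enterocytes, 9 of 9 measured, had mean levels of 12.87 to 13.20 in Duoxa-/- pools and 13.02 to 13.20 in wt pools. Each array's mean correlation with the others was between 0.994 and 0.996. In the wt pool of cage 1 the 8 smooth muscle markers lay 0.47 above the mean of the 6 arrays, while the other pools lay between -0.35 and 0.07. In whole mucosa, fewer cells of a type and less RNA per cell cannot be told apart.

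No member passed the test between genotypes. With limma, 0 of 10 member probe sets had an adjusted p under 0.05, against a background of 0% of all 45037 probe sets, and their adjusted p ranged from 0.794 to 0.965. At an unadjusted p under 0.05, 2692 probe sets passed over the whole table (5.98%), and 1 of 10 member probe sets, that of Sprr1a. By direction, 3.35% of all probe sets passed as higher and 2.63% as lower in Duoxa-/- pools. With cage as a replicate block, 2 of 10 member probe sets had an unadjusted p under 0.05, Sprr1a and a Tgm2 probe set, against 6.6% of all and 3.6% for the higher direction alone. The groups did not overlap for Sprr1a, with Duoxa-/- higher, as for 6.25% of all probe sets (5.36% with Duoxa-/- lower), and overlapped for the other 9. Higher in all 3 cages were 4 of 10, against 15.3% of all probe sets, but 3 of these 4 read the same gene, Tgm2. Lower in all 3 cages were 0 of 10, against 14.3%.

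**Figure D1:**
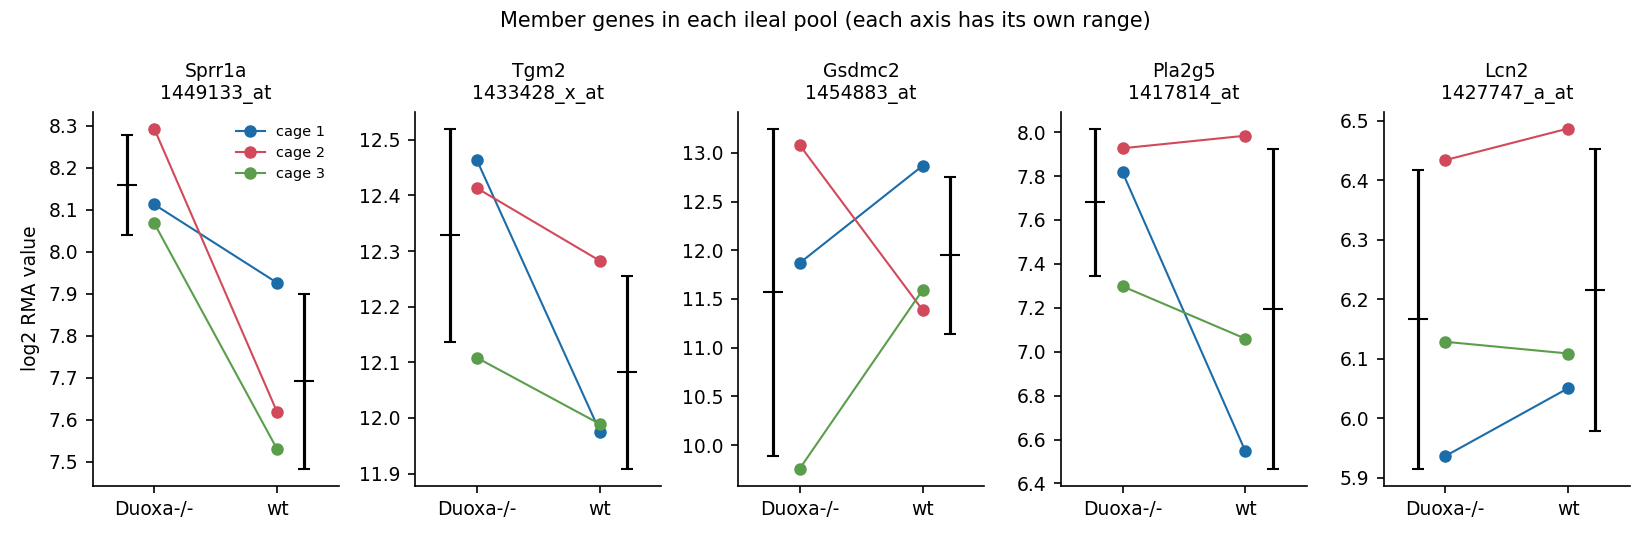
log2 values of the brightest probe set of each measured member, Duoxa-/- pools left and wt pools right in each panel, with points joined within a cage and black bars for the mean ± SD of 3 pools. The Sprr1a groups do not overlap (8.07 to 8.29 in Duoxa-/- pools, 7.53 to 7.93 in wt pools), while the Gsdmc2 lines cross.

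Sprr1a (1449133_at) was the member whose pools separated by genotype. It read 8.11, 8.29 and 8.07 in the Duoxa-/- pools of cages 1, 2 and 3, against 7.93, 7.62 and 7.53 in the wt pools. All 3 Duoxa-/- pools were above all 3 wt pools, with the smallest gap in cage 1, where the wt pool was the highest of its group. Duoxa-/- minus wt came to 0.19, 0.67 and 0.54 in cages 1, 2 and 3. The means were 8.16 ± 0.12 in Duoxa-/- pools and 7.69 ± 0.21 in wt pools (SD, n = 3 each), a difference of 0.47 (SE 0.12, 95% interval 0.20 to 0.74) or 1.38-fold. The limma p was 0.0038 unadjusted and the adjusted p 0.794 over all probe sets, so the difference did not pass. Under 19 alternatives the difference lay between 0.36 and 0.61 and the adjusted p between 0.456 and 0.999. As the groups do not overlap, leaving out pools or cages could not turn its sign.

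The measured genes of the cornified envelope, taken as a group, did not lie higher in Duoxa-/- pools. Of 21 listed genes, Sprr1a included, 14 were measured, 10 of them below the median level of all probe sets (6.58), and 6 were higher and 8 lower in Duoxa-/- pools, with a median difference of -0.015 against -0.012 over all genes. Of the 14, 0 passed after adjustment. Sprr2a1, Sprr2a2, Sprr2a3, Sprr2b, Sprr2e, Sprr2g and Sprr4 had no probe set of their own. The counts therefore say nothing about these genes, most of them of the Sprr2 group. Sprr2h, read by a probe set that may bind related transcripts, averaged 5.18 ± 0.27 in Duoxa-/- pools and 4.86 ± 0.03 in wt pools (SD, n = 3 each), a difference of 0.32 (SE 0.13, adjusted p = 0.794 with limma). Its groups, like those of Sprr1a, did not overlap, and the Duoxa-/- pool was the higher one in all 3 cages. Cnfn, named here after its values were seen, did not overlap either, with Duoxa-/- lower (-0.10, SE 0.08). Over all probe sets, 6.25% did not overlap with Duoxa-/- higher and 5.36% with Duoxa-/- lower. In the list 2 of 14 were higher in all 3 cages and 3 of 14 lower, against 13.5% and 16.6% of all genes. Sprr2k, at 8.17 ± 0.19 in Duoxa-/- pools and 8.08 ± 0.14 in wt pools, differed by 0.09 (SE 0.12). Ivl, which encodes involucrin, a cornified envelope scaffold, differed by -0.17 (SE 0.11), and Evpl, which encodes envoplakin, a plakin that links the envelope to filaments, by -0.24 (SE 0.12).

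Over the 6 arrays, Sprr1a was most like Ptgs2 (Pearson r = 0.94), Zeb2 (r = 0.93) and Skil (r = 0.91) among 2414 genes at or above the median level whose range reached 0.5, a description over 6 arrays that share genotype and cage. Ptgs2, the inducible cyclooxygenase, read 8.16, 8.46 and 7.97 in Duoxa-/- pools, against 8.06, 7.77 and 7.63 in wt pools. The groups of Ptgs2 overlapped in 1 pool of each, the wt pool of cage 1 lying above the Duoxa-/- pool of cage 3. Zeb2, a zinc finger transcriptional repressor, read 9.08, 9.11 and 9.09 in Duoxa-/- pools, against 8.72, 8.64 and 8.55 in wt pools, with no overlap.

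Tgm2 gave differences of unequal size by probe set. The brightest, 1433428_x_at, read 12.46, 12.41 and 12.11 in the Duoxa-/- pools of cages 1, 2 and 3, against 11.98, 12.28 and 11.99 in the wt pools. The Duoxa-/- pool was the higher one in each cage, but the wt pool of cage 2 lay above the Duoxa-/- pool of cage 3, so the groups overlapped. The means were 12.33 ± 0.19 in Duoxa-/- pools and 12.08 ± 0.17 in wt pools (SD, n = 3 each), a difference of 0.25 (SE 0.12, 95% interval -0.04 to 0.53) or 1.19-fold, with a limma adjusted p of 0.794. The differences were 0.49, 0.13 and 0.12 in cages 1, 2 and 3, and without cage 1 the difference was 0.12.

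The other Tgm2 probe sets ranged from no difference to one of similar size. 1437277_x_at differed by 0.29 (SE 0.13) and 1455900_x_at by 0.21 (SE 0.14), and both followed the brightest probe set over the 6 arrays (r = 0.98 for each). The suffix _x_at marks probes that may bind other transcripts, and these 3 probe sets carry it. The 2 probe sets with the suffix _a_at, whose probes are designed to bind transcripts of 1 gene, gave smaller values. 1426004_a_at differed by 0.13 (SE 0.11), with 0.01, 0.24 and 0.14 in cages 1, 2 and 3. 1417500_a_at read 10.52, 10.58 and 10.25 in Duoxa-/- pools, against 10.45, 10.74 and 10.27 in wt pools, a difference of -0.04 (SE 0.14), the opposite sign to 1426004_a_at. The direction of the Tgm2 difference therefore depended on which probe set was read. The last, 1438942_x_at, was dim at 4.28 ± 0.04 in Duoxa-/- pools and 4.15 ± 0.15 in wt pools and differed by 0.12 (SE 0.09). The mean of all 6 probe sets differed by 0.16.

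Of the other genes listed with the transglutaminases, 7 of 8 were measured, 6 of them below the median level. Among these is F13b, the non-catalytic chain of coagulation factor XIII, which is not itself a transglutaminase. It was dim and differed by -0.06 (SE 0.10). Counted with Tgm2, 3 were higher and 5 lower, the median difference was -0.04, and 0 passed after adjustment. Tgm1, the transglutaminase of the epidermis, differed by -0.12 (SE 0.08), Tgm6 by -0.11 (SE 0.10) and F13a1, the catalytic chain of coagulation factor XIII, by -0.10 (SE 0.13). The list reads Tgm2 from its brightest probe set, 1433428_x_at.

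**Figure D2:**
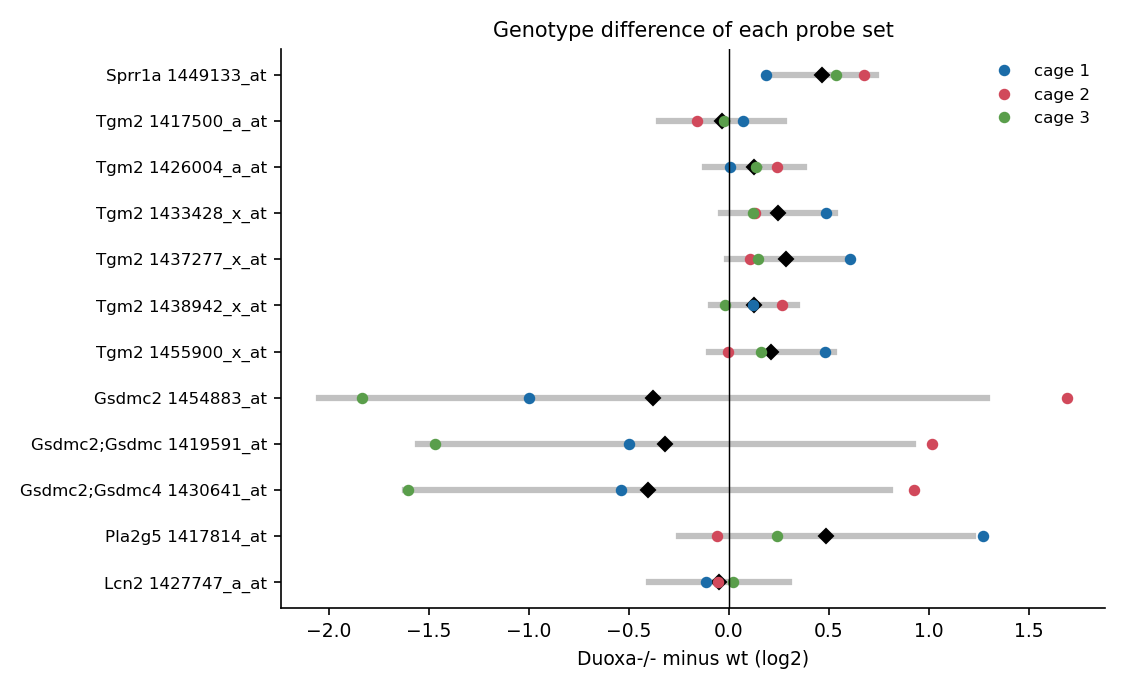
Differences in log2 value, Duoxa-/- minus wt, of the 10 member probe sets and of 2 probe sets annotated to Gsdmc2 and another gene, with coloured points for each cage, a diamond for the mean and a grey bar for the 95% interval from limma. The Sprr1a interval (0.20 to 0.74) excludes 0 without adjustment, and the Gsdmc2 points spread from -1.83 to 1.69.

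Gsdmc2 varied more between pools than nearly any other transcript, and not by genotype. Its probe set 1454883_at read 11.87, 13.08 and 9.76 in the Duoxa-/- pools of cages 1, 2 and 3, against 12.87, 11.39 and 11.59 in the wt pools. The Duoxa-/- pools held both the highest and the lowest value, so the groups overlapped fully. The range of 3.32 over the 6 arrays is a 9.99-fold spread, and 7 of 45037 probe sets had a wider one, while the median range was 0.34. Against its cage mate the Duoxa-/- pool was lower in cages 1 and 3 (-0.998 and -1.83) and higher in cage 2 (1.69). The means were 11.57 ± 1.68 in Duoxa-/- pools and 11.95 ± 0.80 in wt pools (SD, n = 3 each), a difference of -0.38 (SE 0.73, 95% interval -2.05 to 1.29) with a limma adjusted p of 0.924. The interval runs from 0.241-fold to 2.45-fold, so a sizeable change in either direction was not detectable with these pools. Without the Duoxa-/- pool of cage 3 the difference was 0.53, and without the wt pool of cage 1 it was 0.08. There is 1 pool per cage and genotype, so the order of single pools carries no test.

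The 2 probe sets that the platform assigns to Gsdmc2 together with another gene followed the same pattern, and neither can be given to 1 gene. 1430641_at, assigned to Gsdmc2 and Gsdmc4, read 13.45, 13.98 and 11.61 in Duoxa-/- pools, against 13.99, 13.05 and 13.21 in wt pools. 1419591_at, assigned to Gsdmc2 and Gsdmc, read 11.56, 12.18 and 9.72 in Duoxa-/- pools, against 12.06, 11.16 and 11.19 in wt pools. The 3 probe sets correlated over the 6 arrays with r of 0.985 to 0.997, and in all 3 the Duoxa-/- pool of cage 3 was the lowest. Gsdmc2 lies at chr15:63824328-63845193 and Gsdmc4 at chr15:63891140-63912319 (GRCm38.p6). These probe sets may not separate the transcripts of such related genes, and no probe sequences were at hand to check it.

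A further probe set of the gasdermin C cluster, 1454049_at of the pseudogene Gsdmcl-ps, named here after its values were seen, varied in a similar way. It read 6.12, 8.15 and 5.34 in Duoxa-/- pools, against 7.36, 5.75 and 6.05 in wt pools. As with Gsdmc2, the Duoxa-/- pools of cages 2 and 3 held the highest and the lowest value, and 18 probe sets had a range wider than its 2.81. Not every probe set of a gasdermin C-like gene did so. The range was 0.30 for 1432257_at of Gsdmcl1, and 0.47 and 0.44 for 1432929_at and 1432930_at of Gsdmcl2. It was 0.58 for 1432380_s_at, assigned to Gsdmcl2 and Gsdmcl-ps. Each of these lay below the median level. Gasdermins outside this cluster also varied less than Gsdmc2. Gsdmd, the gasdermin cleaved by inflammatory caspases, averaged 10.95 ± 0.05 in Duoxa-/- pools and 10.93 ± 0.12 in wt pools (SD, n = 3 each). Its range over the arrays was 0.22 and its difference 0.02 (SE 0.09). Gsdme, the gasdermin cleaved by caspase-3, differed by -0.14 (SE 0.15), Gsdma2 by -0.15 (SE 0.14) and Gsdma by -0.13 (SE 0.09), the last dim at 4.31 ± 0.14 in Duoxa-/- pools and 4.44 ± 0.05 in wt pools (SD, n = 3 each). Of 10 listed gasdermins 5 were measured, 1 higher and 4 lower, and 0 passed after adjustment.

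Partners of gasdermins in inflammasome signalling numbered 14 measured of 19, with 9 higher and 5 lower, a median difference of 0.03 and 0 passing after adjustment. Il1b, the cytokine released through gasdermin pores, averaged 7.02 ± 0.19 in Duoxa-/- pools and 6.50 ± 0.24 in wt pools, a difference of 0.52 (SE 0.14, adjusted p = 0.794). Aim2, a sensor of cytosolic DNA, differed by 0.21 (SE 0.13) and Nlrp3, the inflammasome sensor, by -0.21 (SE 0.10). Casp4, the caspase that cleaves Gsdmd after lipopolysaccharide sensing, differed by 0.27 (SE 0.21), with 1.05 in cage 1 and -0.16 and -0.07 in cages 2 and 3.

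Genes of the type 2 response listed with gasdermin C, not all of them upstream of it, were measured in 13 of 13 cases. In Duoxa-/- pools 10 (76.9%) were lower and 3 higher, against 53.9% lower over all genes. Their median difference was -0.10 against -0.01 over all genes, with 0 passing after adjustment. The median was -0.02 without the wt pool of cage 1. Retnlb, a goblet cell antimicrobial protein induced by type 2 cytokines, read 11.26, 12.77 and 10.45 in Duoxa-/- pools, against 11.63, 10.96 and 9.52 in wt pools. It shared with Gsdmc2 the highest value in the Duoxa-/- pool of cage 2, but its lowest value was in the wt pool of cage 3. Trpm5, the cation channel of tuft cells, averaged 7.13 ± 0.25 in Duoxa-/- pools and 7.55 ± 0.40 in wt pools and differed by -0.42 (SE 0.20), Stat6, the transcription factor downstream of both cytokines, by -0.27 (SE 0.14) and Il13ra2, a decoy receptor, by -0.26 (SE 0.15). Il4 and Il25 were dim in all pools, with means of 4.73 and 4.65 over the 6 arrays, and Il13 lay near the median level, with a mean of 6.55.

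Over the 6 arrays, Gsdmc2 was most like Pla2g4c (r = 0.97), Plcb2 (r = 0.97) and Pnliprp2 (r = 0.96). Pla2g4c, a cytosolic phospholipase A2, read 12.53, 13.17 and 10.97 in Duoxa-/- pools, against 13.38, 12.28 and 12.69 in wt pools. Pnliprp2, a lipase related to the pancreatic enzyme, read 12.85, 13.61 and 11.85 in Duoxa-/- pools, against 13.88, 12.63 and 12.56 in wt pools. Both, like Gsdmc2, were lowest in the Duoxa-/- pool of cage 3. Unlike Gsdmc2, which was highest in the Duoxa-/- pool of cage 2, both were highest in the wt pool of cage 1. Plcb2, the phospholipase C of chemosensory cells, kept the pattern within a narrower span, from 7.10 in the Duoxa-/- pool of cage 3 to 7.64 in that of cage 2.

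**Figure D3:**
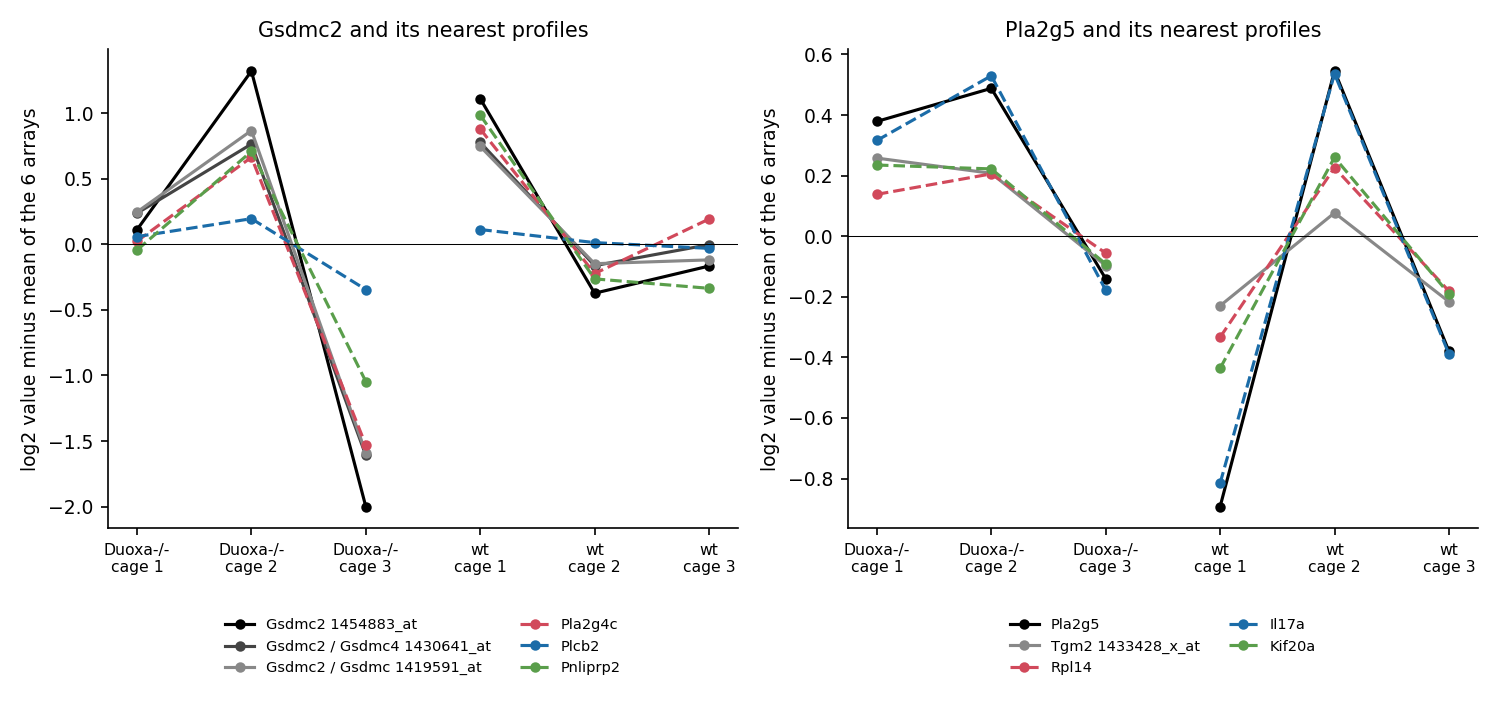
log2 values of Gsdmc2 (left) and Pla2g5 (right) with the 3 genes most like each and further probe sets of the members, as deviations from each probe set's mean over the 6 arrays; Duoxa-/- pools stand left and wt pools right, and lines join the points of 1 probe set. The 3 Gsdmc2 probe sets are lowest in the Duoxa-/- pool of cage 3, and Pla2g5 is lowest in the wt pool of cage 1.

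Pla2g5 (1417814_at) had the largest positive mean difference of the members, and its size depended on single wt pools. It read 7.82, 7.93 and 7.30 in the Duoxa-/- pools of cages 1, 2 and 3, against 6.55, 7.98 and 7.06 in the wt pools. The wt pool of cage 1 was the lowest and the wt pool of cage 2 the highest of all 6, so the groups overlapped. By cage, Duoxa-/- minus wt was 1.27 in the first, -0.06 in the second and 0.24 in the last. The means were 7.68 ± 0.34 in Duoxa-/- pools and 7.20 ± 0.73 in wt pools (SD, n = 3 each), a difference of 0.48 (SE 0.32, 95% interval -0.25 to 1.22) or 1.40-fold, with a limma adjusted p of 0.801. Without the wt pool of cage 1 the difference was 0.16, and without the wt pool of cage 2 it was 0.88 (limma adjusted p = 0.688). Without both pools of cage 1 it was 0.09, and without both pools of cage 2 it was 0.76. Of all probe sets, 169 had a wider range than the 1.44 of Pla2g5.

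In the wt pool of cage 1, the lowest for Pla2g5, smooth muscle markers were the highest of the 6 pools, and lymphocyte markers, 8 of 9 measured, were the lowest, at -0.17 relative to the mean of the arrays (-0.12 to 0.15 in Duoxa-/- pools, 0.05 and 0.19 in the other wt pools). The macrophage markers of that pool, 10 of 10 measured, lay at 0.02 (-0.25 to 0.10 in Duoxa-/- pools, -0.10 and 0.18 in the other wt pools). Fibroblast and endothelial markers were also highest in that pool, at 0.28 and 0.13, against at most 0.08 and 0.03 in the other pools. Mast cell markers lay at 0.47 there and at 0.62 in the wt pool of cage 2. The part of these cells in the Pla2g5 and Tgm2 values was not tested.

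Pla2g5 was most like Rpl14, Il17a and Kif20a over the 6 arrays (r = 0.997, 0.997 and 0.996), and 80 of 2414 genes compared (3.31%) exceeded an r of 0.95, so the pattern was a common one. Il17a, the cytokine of type 17 lymphocytes, read 7.77, 7.99 and 7.28 in Duoxa-/- pools, against 6.64, 7.995 and 7.07 in wt pools, with the same lowest and highest pool. Kif20a, a kinesin of cell division, read 8.08, 8.06 and 7.75 in Duoxa-/- pools, against 7.40, 8.10 and 7.65 in wt pools. Tgm2 (1433428_x_at) read 11.98 in the wt pool of cage 1, its lowest, but 11.99 in that of cage 3. The lowest pool of Tgm2 differed by probe set. It was the wt pool of cage 1 for 1437277_x_at, the wt pool of cage 3 for 1455900_x_at and 1426004_a_at, and the Duoxa-/- pool of cage 3 for 1417500_a_at. The genes most like 1433428_x_at were Ssh1 (r = 0.99), Rrm2 (r = 0.98) and Mmp13 (r = 0.98).

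The family of secreted phospholipases A2 and their receptor was measured whole, 12 of 12, with 8 higher and 4 lower, a median difference of 0.05 and 0 passing after adjustment. Pla2r1, the receptor, differed by 0.12 (SE 0.08), Pla2g2f by -0.16 (SE 0.11) and Pla2g2e by -0.11 (SE 0.09). Pla2g12b, read at 11.28 ± 0.15 in Duoxa-/- pools and 11.23 ± 0.10 in wt pools (SD, n = 3 each), differed by 0.05 (SE 0.10). Enzymes of eicosanoid synthesis, 14 of 16 measured, were higher in 6 and lower in 8 cases, with a median of -0.02 and 0 passing after adjustment. Of these, Ptgs2 differed by 0.38 (SE 0.15), Ptges, a prostaglandin E synthase, by 0.12 (SE 0.09), Ltc4s, the leukotriene C4 synthase, by -0.21 (SE 0.12) and Ptgds, a prostaglandin D synthase, by -0.11 (SE 0.09).

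Lcn2 (1427747_a_at) was dim, and its values lay closer within cages than within genotypes. It read 5.94, 6.43 and 6.13 in the Duoxa-/- pools of cages 1, 2 and 3, against 6.05, 6.49 and 6.11 in the wt pools. Both pools of cage 2 were above all others, and the 2 pools of each cage lay within 0.11 of each other. The means were 6.17 ± 0.25 in Duoxa-/- pools and 6.22 ± 0.24 in wt pools (SD, n = 3 each), a difference of -0.05 (SE 0.15, 95% interval -0.40 to 0.30) with a limma adjusted p of 0.957. All values lay below the median level of 6.58, and RMA compresses differences at such levels.

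For cages, an F-test in limma that kept genotype as a term gave Lcn2 an unadjusted p of 0.0074, Pla2g5 0.043 and Tgm2 (1417500_a_at) 0.023. At this threshold 3 of 10 member probe sets passed, against 5.55% of all probe sets. After adjustment 0 of 10 members passed (adjusted p from 0.877 to 0.907), against 0.00222% of all probe sets, which is 1 unnamed probe set (1425871_a_at), given here after its values were seen. Cage means of Lcn2 were 5.99, 6.46 and 6.12 in cages 1, 2 and 3, and those of Gsdmc2 were 12.37, 12.23 and 10.68 (F-test unadjusted p = 0.083). Over the 6 arrays Lcn2 was most like Nhlrc1 (r = 0.92), Saxo2 (r = 0.89) and Cklf (r = 0.86), each highest, as Lcn2 was, in the pools of cage 2.

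Neutrophil markers were mostly dim, 10 of 11 measured below the median level, with list means of 5.25 to 5.55 in Duoxa-/- pools and 5.25 to 5.34 in wt pools. Of the 11, 4 were higher and 7 lower in Duoxa-/- pools, with a median difference of -0.02. In all 3 cages 2 of the 11 (18.2%) were higher, against 13.5% of all genes. S100a8 and S100a9, the subunits of calprotectin, which withholds metals from bacteria, read higher in Duoxa-/- than in wt in each of the 3 cages, most in cage 2. S100a9 read 5.23, 6.48 and 5.30 in Duoxa-/- pools, against 4.94, 5.04 and 5.13 in wt pools, and S100a8 5.78, 6.86 and 5.69 in Duoxa-/- pools, against 5.48, 5.78 and 5.31 in wt pools. The groups did not overlap for S100a9 and overlapped for S100a8. Both genes were highest in the Duoxa-/- pool of cage 2, where Lcn2 was 0.05 below the wt pool of that cage. The neutrophil markers Mpo, Elane and Cxcr2 were dim in every pool, with means of 5.43, 4.67 and 4.25 over the 6 arrays. S100a9 differed by 0.63 (SE 0.29) and S100a8 by 0.59 (SE 0.28), both with a limma adjusted p of 0.794 (0.740 with cage as a block).

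The list of lipocalins and iron-withholding proteins, 10 of 11 measured, had 2 higher and 8 lower, a median difference of -0.04 and 0 passing after adjustment. Hmox1, the inducible heme oxygenase, read 6.11, 5.96 and 6.05 in Duoxa-/- pools, against 6.27, 6.28 and 6.24 in wt pools. All Duoxa-/- pools were below all wt pools, with a difference of -0.22 (SE 0.08, adjusted p = 0.794). Hamp, which encodes hepcidin, the hormone that blocks iron export, was dim and differed by -0.17 (SE 0.11). Regulators upstream of Lcn2, 14 of 15 measured, were higher in 10 and lower in 4 cases, with a median of 0.09 and 0 passing after adjustment. By cage the median of this list came to 0.33, -0.0002 and -0.08. Nfkbiz, the NF-kB cofactor needed for Lcn2 induction, differed by 0.19 (SE 0.20), Stat3 by -0.12 (SE 0.08), Cebpb by 0.13 (SE 0.11) and Il17rc, a receptor chain for interleukin-17, by -0.10 (SE 0.10).

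**Figure D4:**
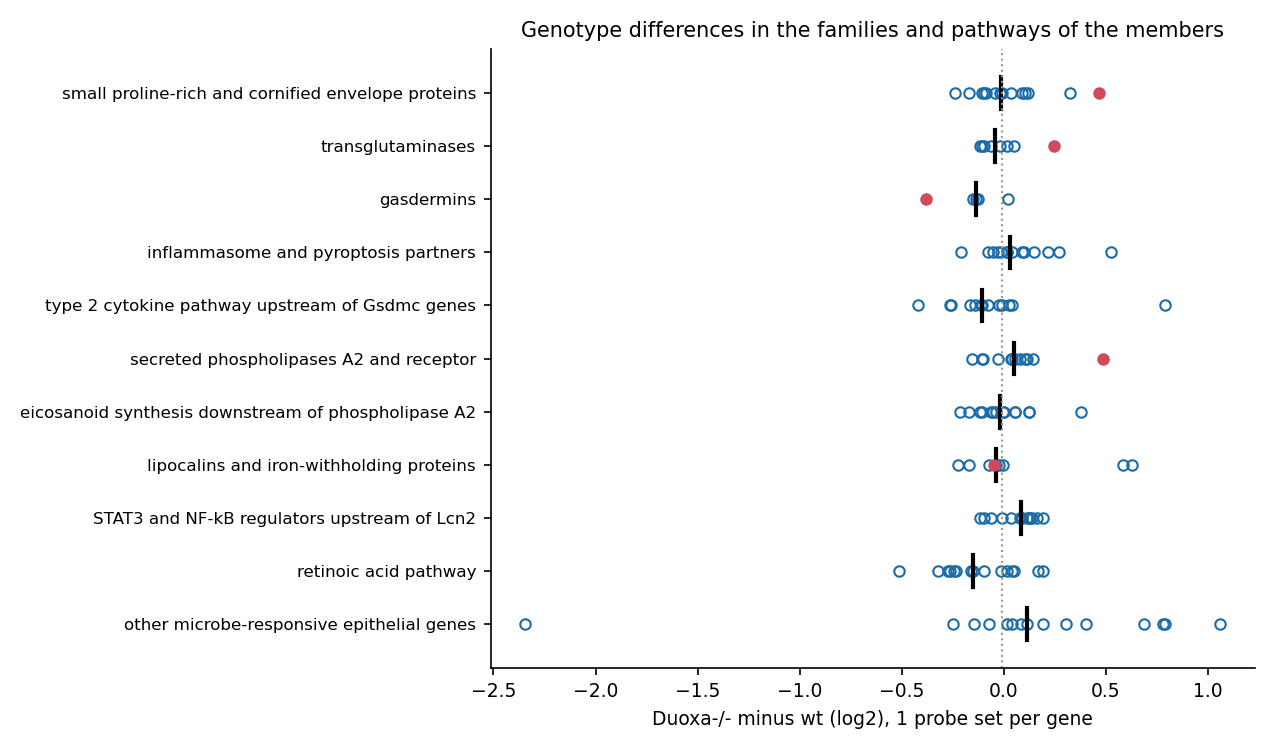
Differences in log2 value, Duoxa-/- minus wt, of every measured gene of the members' families and pathways, 1 probe set per gene; filled red points are members, black bars are list medians and the dotted line is the median of all genes (-0.01). Sprr1a and Pla2g5 have the highest differences of their families, as does Tgm2 at the probe set drawn (1433428_x_at, 0.25) but not at 1417500_a_at (-0.04), and the point farthest left is Duoxa2 (-2.34).

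Other genes known to respond to microbes in gut epithelium were higher in 11 and lower in 4 of 15 measured, of 16 listed, with a median of 0.11 and 0 passing after adjustment. The targeted Duoxa2 is among the 4. The median was 0.050 without the wt pool of cage 1, 0.056 without both pools of that cage, 0.25 without those of cage 3 and 0.27 when each gene's probe sets were averaged. In this list 6 of 15 were higher in all 3 cages, against 13.5% of all genes. These genes were placed in the list with earlier results of these arrays known, so the count is no independent support for the direction of Sprr1a or Tgm2. Nos2, the inducible nitric oxide synthase, averaged 7.40 ± 0.15 in Duoxa-/- pools and 7.0 ± 0.28 in wt pools (SD, n = 3 each), and Fut2 9.71 ± 0.94 in Duoxa-/- pools and 8.94 ± 0.79 in wt pools.

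Marker lists of the other cell types of the mucosa gave median differences of -0.01 for epithelium, -0.09 for ileal enterocytes, -0.03 for macrophages, 0.03 for endothelium, -0.00 for fibroblasts, -0.02 for neutrophils and -0.11 for lymphocytes. Smooth muscle markers had a median of -0.24 and mast cell markers one of -0.30, 6 of the 8 mast cell markers being below the median level. Without the wt pool of cage 1 these medians were -0.080 and -0.16, and without both pools of cage 1 that of smooth muscle was 0.022. In these 9 lists 0 genes passed after adjustment.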

How the data were processed

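Single-colour Affymetrix arrays of 6 RNA pools gave 45101 probe sets, of which 64 controls were left out. The authors deposited log2 values; the submitters' processing notes name RMA and affy, without versions, and the settings used are not given there. RMA evens out the arrays' distributions and compresses dim probe sets. The number of arrays limits the precision.

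Platform annotation gave 1 symbol to 34945 probe sets, several to 932 and none to 9160. Genes in lists are represented by their brightest probe set (18193 genes). Genotype (Duoxa-/- minus wt) and cages (F-test with genotype) were compared over all 45037 probe sets by limma (version 3.58.1, R 4.3.3), two-sided, with Benjamini-Hochberg adjustment, and the scripts were tested on simulated data. SE and intervals are from limma, SD is over 3 pools. Tables and figures used Python 3.11.15, pandas 2.3.3 and matplotlib 3.10.9.

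The members and the 20 lists (240 entries, 214 measured) were chosen with earlier results of these data known. Named are all members, the up to 4 genes of smallest p in each family or pathway list, the gene of highest level in each member's family, Duoxa2, and the 3 genes most like each member by Pearson r; others, among them Gsdmd, Gsdmcl-ps, Il4, Il13, Il25, Mpo, Elane and Cxcr2, were chosen after their values were seen. For the marker lists of cell types medians are given.

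The design text makes each cage a litter, so the numbers pair the pools. As a check, group means were subtracted and the remainders of cage mates correlated, with r = -0.15, 0.07 and 0.29 in cages 1, 2 and 3, against -0.38 to 0.38 between cages. Alternatives covered the cage block, left-out pools and cages, scaling, dim probe sets, the variance model, array weights and the choice of probe set.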

Additional observations from a re-analysis of the deposited data

How the results depend on the processing

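With cage as a replicate block 0 probe sets were called between genotypes (smallest adjusted p 0.740, against 0.794 without it), and the block changed no member's call. The count of called probe sets was 0 under every other alternative except without the wt pool of cage 3, where Duoxa2 alone passed (difference -2.79, adjusted p = 0.0158); over the left-out pools and cages it ranged from 0 to 1. Between cages the count was 1, and 0 without the genotype term and 9 with a mean-variance trend and robust prior. Sprr1a and Pla2g5 kept their sign in all 19 alternatives each, from 0.36 to 0.61 and from 0.09 to 0.88. Many of these could not turn a sign. The Sprr1a groups do not overlap, so no left-out pool or cage could reverse it. For both genes, with 1 probe set each, the cage block, the variance model, the removal of dim probe sets and the choice of probe set left the difference unchanged. With single pools left out, Gsdmc2 ranged from -1.13 to 0.53 (0.08 without the wt pool of cage 1), Lcn2 from -0.18 to 0.087 and Tgm2 1417500_a_at from -0.15 to 0.090; Gsdmc2 was -1.42 to 0.35 without both pools of a cage, and 1417500_a_at turned to 0.024 without cage 2. With array weights 1417500_a_at turned to 0.0065, and without cross-hybridising probe sets the brightest Tgm2 probe set left, 1417500_a_at, gave -0.037, while the other one left, 1426004_a_at, gave 0.13. The alternatives on scaling and the left-out wt pool of cage 1 for list medians, and those for the cage difference of members, were chosen after seeing the data. Lcn2 has no value among bright probe sets only. Of 168 recomputed list medians 14 moved by more than their spread over cages. Several of these were for the measured members themselves, whose median difference was 0.25 with a spread of 0.036. It was 0.091 without both pools of cage 1 and 0.35 without those of cage 3. With each gene's probe sets averaged it was 0.16, and for members at or above the median level 0.36. In each of these cases the cause was not tested.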

Other observations

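Tgm2 is a known target of retinoic acid, and the genes of that pathway were lower in 10 and higher in 5 of 15 measured, of 16 listed, with a median difference of -0.15. At an unadjusted limma p under 0.05, 4 of 15 (26.7%) were lower, against 3.58% of all genes, and 0 passed after adjustment. Rbp2, the retinol-binding protein of enterocytes, averaged 9.34 ± 0.20 in Duoxa-/- pools and 9.85 ± 0.45 in wt pools (SD, n = 3 each), a difference of -0.51 (SE 0.21). The retinoic acid receptors Rara and Rarg differed by -0.24 (SE 0.09) and -0.26 (SE 0.11), and Crabp1, a binding protein for retinoic acid that was dim here, by -0.23 (SE 0.10), each with an adjusted p of 0.794. In each cage the wt pool was the higher one for these 4 genes. They were named for their small p, which favours such genes, so this is no further support. Of the list, 5 of 15 (33.3%) were lower in all 3 cages, against 16.6% of all genes. Higher in all 3 cages were 0 of 15, against 13.5%. By cage the list's median was -0.36, -0.18 and 0.05, and it was -0.15 without the wt pool of cage 1. The list was chosen with earlier results of these data known.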
